A study of Mus musculus with 14 samples.

Results

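Atf3, a stress-induced transcription factor, was higher in the ischemic than in the contralateral brain hemisphere of mice 48 h after stroke, and most other genes of the integrated stress response did not pass the test. The integrated stress response genes described here are the rows of the deposited expression table with the symbols Atf3, Atf4, Atf5, Ddit3, Ddit4, Chac1, Trib3, Asns, Sesn2 and Hspa5. They are 10 of 46904 genes in the table, and all 10 were among the 46102 genes tested. Averaged over both genotypes, Atf3 and Atf5 passed the test as higher in the ischemic hemisphere. The Atf5 call lay at the threshold and was lost in 10 of 14 fits with a library left out. Between Cort-/- and Cort+/+ mice the members did not pass in either hemisphere, nor did they pass between hemispheres in Cort+/+ mice alone.

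The integrated stress response is the common path by which cells answer amino acid shortage, misfolded protein in the endoplasmic reticulum (ER), double-stranded RNA and lack of heme. Each of these stresses activates a kinase that phosphorylates the translation factor eIF2, which lowers protein synthesis in general and favours translation of the transcription factor ATF4. ATF4 then turns on genes of amino acid supply, redox balance and, when stress lasts, cell death, with ATF3, ATF5 and CHOP (encoded by Ddit3) as further transcription factors of the same path. In the ischemic brain, loss of energy and protein misfolding are known triggers of the path. Because ATF4 protein is set largely at translation, its mRNA level is an incomplete measure of its activity.

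RNA was sequenced from whole brain hemispheres of mice 12 weeks old on a C57BL/6J background, 48 h after transient occlusion of the middle cerebral artery (MCAO) for 20 min. Wild-type mice (Cort+/+) were compared with mice with a constitutive deletion of the cortistatin neuropeptide gene (Cort-/-), and the ischemic hemisphere (MCAO) with the contralateral hemisphere (CL). Cort+/+ mice gave 3 CL libraries and 3 of MCAO (numbered 2, 3 and 4), and Cort-/- mice gave 3 of CL and 5 of MCAO. All mice were operated, so CL is not tissue of an unoperated animal, and a whole hemisphere holds the infarct together with the tissue around it. The study describes the libraries as independent biological replicates, and p-values measure the spread between them. Both hemispheres of a brain were collected, and whether a CL and an MCAO library came from the same mouse is not given. The main fit does not pair them. Its methods also say that, where replicates varied widely, the ones that did not group with the others could be left out of a comparison. The study states 3 CL and 5 MCAO replicates, so the Cort+/+ MCAO group here is smaller than stated. Whether replicates were left out in that way is not given in the sources used here. Cort+/+ MCAO libraries of other numbers were not analysed here.

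The libraries held 25989673 to 43032291 reads on genes. Cort, the deleted gene, was at 2.61 to 5.68 RPKM (reads per kilobase of gene, scaled to library size) in Cort+/+ libraries, and at 0 to 0.136 RPKM, or at most 4 reads, in Cort-/- libraries. All 6 genes of a list of spiny striatal neuron markers fell in MCAO hemispheres (summed level 93.1 to 198 RPKM in MCAO against 221 to 265 RPKM in CL libraries), and 4 of 5 microglial markers rose (60.3 to 91.5 against 48.9 to 53.8 RPKM). Of astrocyte, endothelial and monocyte or macrophage markers 3, 2 and 1 of 6 rose. Summed markers of neurons in general ran from 1541 to 1797 RPKM in MCAO and from 1732 to 2124 RPKM in CL libraries, and those of neutrophils from 2.30 to 15.6 and from 2.36 to 9.50 RPKM. In bulk tissue, fewer cells of a type and less RNA per cell cannot be told apart.

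Atf3 lies on chromosome 1 of the GRCm39 build (chr1:190902493-190950241, minus strand). The 250 bases before the start of its canonical transcript in GENCODE M39 (chr1:190915538-190915787) are shown because Atf3 is the member that moved most. The capitals mark a match, on the opposite strand, to TGATGNAA, a core of the C/EBP-ATF response element (CARE) that ATF4 is known to bind together with C/EBP proteins.
Atf3: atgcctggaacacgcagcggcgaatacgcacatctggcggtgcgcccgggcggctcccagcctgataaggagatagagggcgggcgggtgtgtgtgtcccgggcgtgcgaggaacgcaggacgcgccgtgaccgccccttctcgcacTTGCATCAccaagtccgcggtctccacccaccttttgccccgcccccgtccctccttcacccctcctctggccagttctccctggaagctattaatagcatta

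The same 8 letters stand in the 250 bases before 3 of the 10 members, Atf3, Ddit3 and Chac1, always on the strand opposite to the gene. The 30 bases around each match are at chr1:190915622-190915651 for Atf3, chr10:127126350-127126379 for Ddit3 and chr2:119181519-119181548 for Chac1, read on the strand of the gene, with the match in capitals.
Atf3: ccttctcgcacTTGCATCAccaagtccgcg
Ddit3: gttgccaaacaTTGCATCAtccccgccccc
Chac1: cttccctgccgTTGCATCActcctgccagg
The matches span positions -103 to -96 of Atf3, -199 to -192 of Ddit3 and -159 to -152 of Chac1, counted back from the base before the start. Of 21751 protein-coding promoters of the same length, 3.393% held TGATGNAA on either strand. Of these 3 genes, Atf3 passed the test between hemispheres, while Ddit3 and Chac1 did not. Atf5, the other member that passed, held no match in its 250 bases.

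Hspa5 carried the ER stress response element (ERSE, CCAAT and CCACG with 9 bases between them) at -67 to -49. It is shown because Hspa5 is the member that stands for the ER branch, with its 30 bases at chr2:34662032-34662061 and the paired parts of the element in capitals.
Hspa5: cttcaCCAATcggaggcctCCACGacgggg
Of all promoters searched, 0.115% held this element on either strand. The cyclic AMP response element TGACGTCA was in 0 of 10 members and in 1.696% of promoters, and TGACGTGG, an element of the unfolded protein response, was in 0 of 10 and in 0.556%. Only the start of the canonical transcript was searched, and a match is a description of letters, not of binding.

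The members were expressed at very different levels, here compared as RPKM, which divides by gene length. Averaged over the 14 libraries, Hspa5 was highest at 69.2 RPKM, followed by Atf4 at 59.0 and Asns at 43.1 RPKM. Ddit4 (24.9 RPKM), Ddit3 (17.9 RPKM) and Atf5 (11.0 RPKM) lay in the middle. Sesn2 (5.01 RPKM), Chac1 (3.74 RPKM), Atf3 (1.39 RPKM) and Trib3 (0.357 RPKM) were lowest. Most neighbours in this order kept it in 13 or 14 of 14 libraries. The exceptions were Hspa5 above Atf4, which held in 11 of 14, and Ddit4 above Ddit3, which held in 9 of 14, so the levels of these pairs are not separated.

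**Figure D1:**
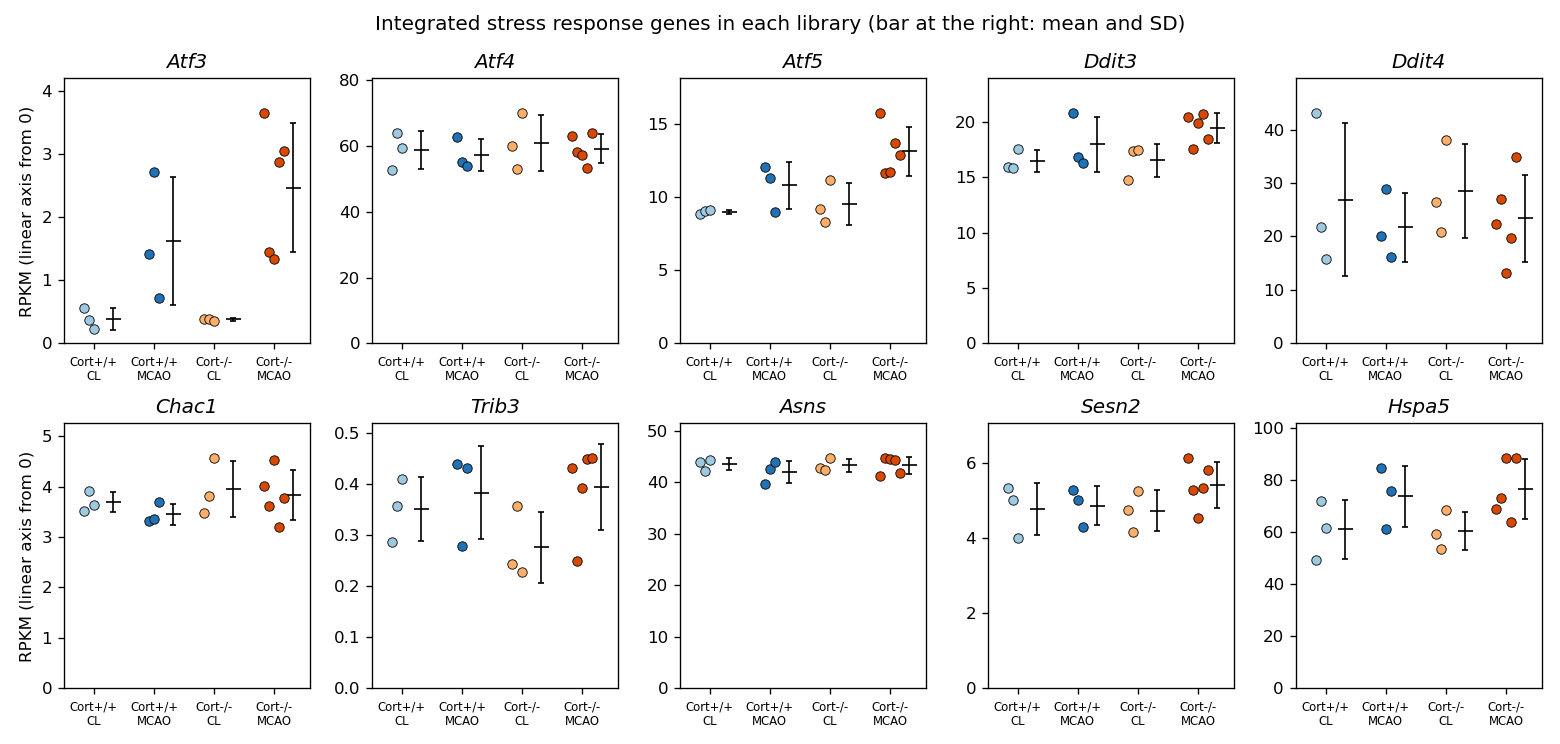
Expression of the 10 genes in each library as RPKM on linear axes that start at 0, with 1 point a library and the mean and SD of each group beside the points (n = 3, 3, 3 and 5). In Atf3 every MCAO point lies above every CL point, while in Asns all 14 libraries lie between 39.8 and 44.7 RPKM.

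Among the transcription factors, Atf4, the regulator at the centre of the path, did not pass the test in any comparison. In Cort+/+ mice the CL libraries averaged 58.7 ± 5.66 RPKM (SD, n = 3) and the MCAO libraries 57.2 ± 4.82 RPKM (SD, n = 3). The averages of Cort-/- mice were 60.9 ± 8.63 RPKM (SD, n = 3) and 59.1 ± 4.39 RPKM (SD, n = 5). The log2FC between hemispheres, averaged over both genotypes, was -0.04 (95% interval -0.19 to 0.12, adjusted p = 0.898). As a fold of the whole hemisphere, this interval runs from 0.878 to 1.08. In Cort+/+ mice alone it was wider, from 0.833 to 1.14.

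Atf3, which ATF4 and other stress pathways induce, was low in every CL library. It stood at 0.563, 0.376 and 0.224 RPKM in CL replicates 1, 2 and 3 of Cort+/+ mice, and at 0.391, 0.391 and 0.358 RPKM in those of Cort-/- mice. In MCAO hemispheres of Cort+/+ mice it was at 1.42, 2.72 and 0.720 RPKM in replicates 2, 3 and 4. In MCAO hemispheres of Cort-/- mice it was at 3.65, 1.44, 1.34, 2.87 and 3.04 RPKM in replicates 1 to 5. All 8 MCAO libraries lay above all 6 CL libraries, and the lowest MCAO library was replicate 4 of Cort+/+ mice. These levels rest on 18 to 44 reads in CL and 48 to 342 reads in MCAO libraries.

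Atf3 rose in MCAO hemispheres of Cort-/- mice, from 0.380 ± 0.0186 (SD, n = 3) to 2.47 ± 1.03 RPKM (SD, n = 5). The log2FC on the scale of log2(RPKM + 0.1) was 2.31 (SE 0.40, adjusted p = 0.0169), and the ratio of the mean RPKM was 6.49. Of all genes tested, 1.34% passed as higher in this comparison, and Atf3 was 1 of 10 members. In Cort+/+ mice it went from 0.388 ± 0.170 (SD, n = 3) to 1.62 ± 1.01 RPKM (SD, n = 3), a ratio of means of 4.18 and a log2FC of 1.70 (SE 0.45) with an adjusted p of 0.275. In that comparison only 0.00868% of all genes passed as higher, and 0 of 10 members passed by limma and 0 of 10 by limma voom on recovered reads. At an unadjusted p under 0.05 were 1 of 10 members (Atf3) and 7.87% of all genes. Averaged over both genotypes the log2FC was 2.01 (SE 0.30, adjusted p = 0.00386), and the adjusted p stayed between 0.00117 and 0.0146 with any 1 of the 14 libraries left out. The call in Cort-/- mice alone was lost without CL replicate 1, 2 or 3 of that genotype (adjusted p = 0.0739, 0.0516 and 0.0767). It was also lost when only the 2 groups compared were fitted (adjusted p = 0.0537). The study's own analysis, with the package edgeR, lists Atf3 among the genes called between hemispheres in both genotypes. By the size of the log2FC, it also places Atf3 among the shared genes that rose more in Cort-/- mice.

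Atf5, a relative of Atf4 that is likewise favoured in translation under stress, rose with a smaller difference. It was at 8.85, 9.07 and 9.12 RPKM in CL and 12.1, 11.3 and 9.03 RPKM in MCAO hemispheres (replicates 2, 3 and 4) of Cort+/+ mice, so the groups overlapped through MCAO replicate 4. In Cort-/- mice it was at 9.17, 8.33 and 11.2 RPKM in CL, and at 15.8, 11.7, 11.7, 13.7 and 12.9 RPKM in MCAO replicates 1 to 5, with no overlap. The log2FC was 0.25 (SE 0.13, adjusted p = 0.724) in Cort+/+ and 0.46 (SE 0.12, adjusted p = 0.0764) in Cort-/- mice. Averaged over both genotypes it was 0.35 (SE 0.09, adjusted p = 0.0479), which made Atf5 the second of 2 members to pass there, against 2.52% of all genes passing as higher. In a fit of only the genes that averaged at least 0.5 RPKM, Atf3 and Atf5 both passed, against 1348 of all 17476 genes. The Atf5 call of the main fit lay at the threshold. It was lost with a pseudocount of 1 and in 10 of 14 fits that left out 1 library (adjusted p = 0.0626 to 0.126), namely each of the 3 Cort+/+ CL libraries, Cort+/+ MCAO replicates 2 and 3, Cort-/- CL replicates 1 and 2, and Cort-/- MCAO replicates 1, 4 and 5.

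Ddit3 encodes CHOP, a factor tied to cell death when ER stress lasts. It was at 15.9, 15.8 and 17.6 RPKM in CL and at 20.8, 16.8 and 16.3 RPKM in MCAO hemispheres of Cort+/+ mice. The Cort-/- libraries were at 14.8, 17.4 and 17.5 RPKM in CL and at 20.4, 17.6, 19.9, 20.7 and 18.5 RPKM in MCAO hemispheres. The groups overlapped in Cort+/+ mice and did not in Cort-/- mice, where the lowest MCAO and the highest CL library were nearly level. The log2FC averaged over both genotypes was 0.18 (SE 0.07, unadjusted p = 0.0190, adjusted p = 0.206), so Ddit3 did not pass. Counted by overlap alone, 3 of 10 members (Atf3, Atf5 and Ddit3) lay higher in every MCAO than in every CL library of Cort-/- mice, and 1 of 10 (Atf3) in Cort+/+ mice. Among all genes tested, 4.85% did so in Cort-/- and 5.73% in Cort+/+ mice.

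The enzymes and signalling proteins among the members (Asns, Ddit4, Chac1, Sesn2 and Trib3) did not pass in any comparison, but their spread differed widely. Asns, which makes asparagine and is a classical ATF4 target, was one of the steadiest. Its lowest, median and highest values in the 5 Cort-/- MCAO libraries were 41.3, 44.4 and 44.6 RPKM, and the 3 Cort-/- CL libraries were at 42.8, 42.5 and 44.7 RPKM. Cort+/+ mice had 43.9, 42.2 and 44.4 RPKM in CL and 39.8, 42.5 and 44.0 RPKM in MCAO hemispheres. The SD within groups was 0.05 on the log2 scale, and only 5.8% of 15063 genes that averaged 1 RPKM or more had a smaller one. The 95% interval of the mean fold between hemispheres was 0.936 to 1.03 (adjusted p = 0.818), and larger changes in either direction lay outside it.

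Ddit4, which restrains the growth kinase mTORC1, showed the opposite behaviour, with a 3.28-fold range across the 14 libraries. It was at 43.1, 21.8 and 15.8 RPKM in Cort+/+ CL and 20.2, 28.8 and 16.2 RPKM in Cort+/+ MCAO hemispheres. The Cort-/- libraries were at 26.5, 20.9 and 38.1 RPKM in CL and at 22.3, 27.1, 13.2, 19.8 and 34.9 RPKM in MCAO hemispheres. The ranges of all groups overlapped, with the highest library in Cort+/+ CL and the lowest in Cort-/- MCAO. Its SD within groups was 0.54 on the log2 scale, larger than that of 96.4% of those genes, and the log2FC between hemispheres was -0.26 (95% interval -0.83 to 0.30, adjusted p = 0.720). A fold between 0.563 and 1.23 was therefore not resolved.

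Chac1, an enzyme that breaks down glutathione, ranged from 3.20 to 4.57 RPKM, with a log2FC of -0.07 (95% interval -0.24 to 0.10, adjusted p = 0.775). Sesn2, a leucine sensor upstream of mTORC1, ranged from 3.99 to 6.13 RPKM, with a log2FC of 0.11 (95% interval -0.08 to 0.30, adjusted p = 0.645). It lies 16.97 megabases from Cort on chromosome 4. Trib3, a pseudokinase that is strongly induced by ATF4 and CHOP in many cells, held only 15 to 38 reads in a library. At 0.229 to 0.451 RPKM it gave a log2FC of 0.24 (95% interval -0.11 to 0.59, adjusted p = 0.567), and an interval of the fold from 0.926 to 1.51, so no difference was detectable at this depth. The MCAO and CL ranges of all 3 genes overlapped in both genotypes.

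Hspa5, the main chaperone of the ER lumen, stood for the branch of ER stress. It was at 49.3, 72.2 and 61.8 RPKM in CL and 84.6, 61.3 and 75.7 RPKM in MCAO hemispheres of Cort+/+ mice. In Cort-/- mice it was at 59.3, 53.7 and 68.4 RPKM in CL and at 69.1, 73.0, 88.5, 63.8 and 88.5 RPKM in MCAO hemispheres. The groups overlapped in both genotypes, although the MCAO mean was higher in each. The mean log2FC was 0.31 (SE 0.11, fold 1.24, 95% interval 1.05 to 1.46, unadjusted p = 0.0159), which did not pass over all genes (adjusted p = 0.187). Exons of Hspa5, Atf5, Ddit3 and Asns overlap those of genes on the opposite strand. The libraries were stranded, but whether reads were counted by strand is not given in the sources used here, so reads of these partners may be included.

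**Figure D2:**
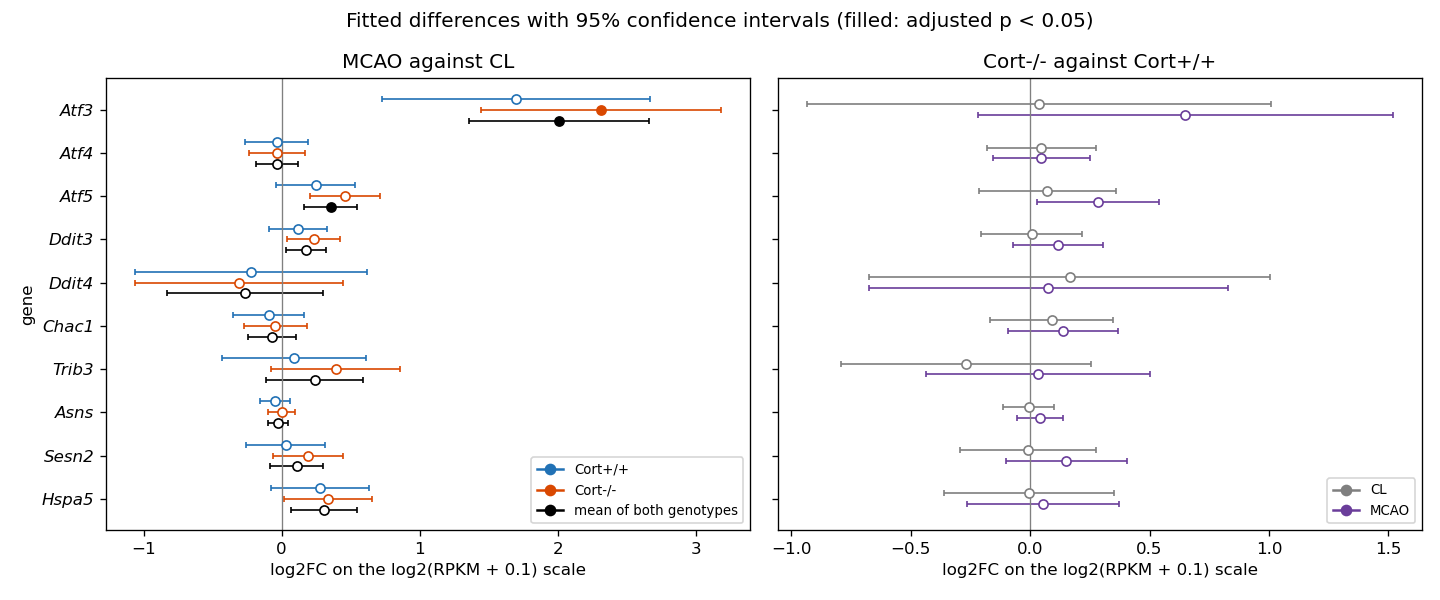
Fitted log2FC of each gene with its 95% confidence interval, on the left for MCAO against CL in Cort+/+ mice, Cort-/- mice and their mean, and on the right for Cort-/- against Cort+/+ mice in each hemisphere. Filled points, at an adjusted p below 0.05, are only Atf3 in Cort-/- mice (2.31) and, for the mean, Atf3 (2.01) and Atf5 (0.35), and the right panel holds none.

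Between genotypes, 0 of 10 members passed in CL hemispheres, where 0.0152% of all genes did. Unadjusted p was under 0.05 for 0 of 10 (3.91% of all genes), and with limma voom on recovered reads 0 of 10 passed as well. In MCAO hemispheres 0 of 10 passed, against 0.0174% of all genes, with 1 of 10 at an unadjusted p under 0.05 (3.82% of all genes) and 0 of 10 by voom. That gene was Atf5, at 13.2 ± 1.69 (SD, n = 5) in Cort-/- against 10.8 ± 1.59 RPKM (SD, n = 3) in Cort+/+ mice (log2FC 0.28, SE 0.12, unadjusted p = 0.0327, adjusted p = 1), with overlapping groups. Atf3 was at a ratio of 1.52 in the same comparison (log2FC 0.65, 95% interval -0.22 to 1.52, unadjusted p = 0.129, adjusted p = 1). The response to MCAO itself differed by a log2FC of 0.61 for Atf3 (95% interval -0.69 to 1.92, unadjusted p = 0.327, adjusted p = 1) and 0.21 for Atf5 (95% interval -0.17 to 0.59, unadjusted p = 0.257, adjusted p = 1). For this difference 0 of 10 members passed, against 0.00217% of all genes, with 0 of 10 at an unadjusted p under 0.05 (3.31% of all genes) and 0 of 10 by voom. Thus Atf3 passed in Cort-/- and not in Cort+/+ mice, but the difference between the genotypes did not pass its own test, and its interval leaves room for one in either direction.

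Members also varied between MCAO hemispheres of one genotype, and Atf3 did so beside markers of several cell types. The MCAO library with the least Atf3 of all, Cort+/+ replicate 4 at 0.720 RPKM, also had the lowest summed level of 5 microglial markers (P2ry12, Tmem119, Cx3cr1, Csf1r and Sall1) at 60.3 RPKM, the lowest astrocyte sum at 555.8 RPKM and the highest level of spiny neuron markers at 198 RPKM. The library with the most, Cort-/- replicate 1 at 3.65 RPKM, had the highest microglial sum at 91.5 RPKM, the highest astrocyte sum at 763.5 RPKM, the lowest spiny neuron sum at 93.1 RPKM and the most Lyz2, a gene of macrophages and activated microglia, at 46.7 RPKM. P2ry12 did not follow the sum, at 10.1 RPKM in the first of these libraries and 10.3 RPKM in the second, with 8.86 and 9.43 RPKM in Cort-/- MCAO replicates 4 and 5, where Atf3 was high. The library with the most Atf3 also had the most Atf5 (15.8 RPKM) and the most Sesn2 (6.13 RPKM). The microglial sum ran from 49.3 to 50.1 RPKM in Cort+/+ CL, from 60.3 to 81.6 RPKM in Cort+/+ MCAO, from 48.9 to 53.8 RPKM in Cort-/- CL and from 66.3 to 91.5 RPKM in Cort-/- MCAO libraries, and none of its markers was at 0. The 6 astrocyte markers summed to 477.2 to 594.4 RPKM in CL and 555.8 to 763.5 RPKM in MCAO libraries. The 6 monocyte and macrophage markers summed to 4.51 to 14.6 RPKM in CL and 10.8 to 52.7 RPKM in MCAO libraries. Lyz2 made up most of this sum, with 46.7 RPKM in Cort-/- MCAO replicate 1 and 12.3 RPKM in Cort+/+ CL replicate 1. Only 1 of the 6 passed in the mean of both genotypes, so the sum does not show a rise of the whole set. The part of these cells in the Atf3 and Atf5 results was not tested.

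**Figure D3:**
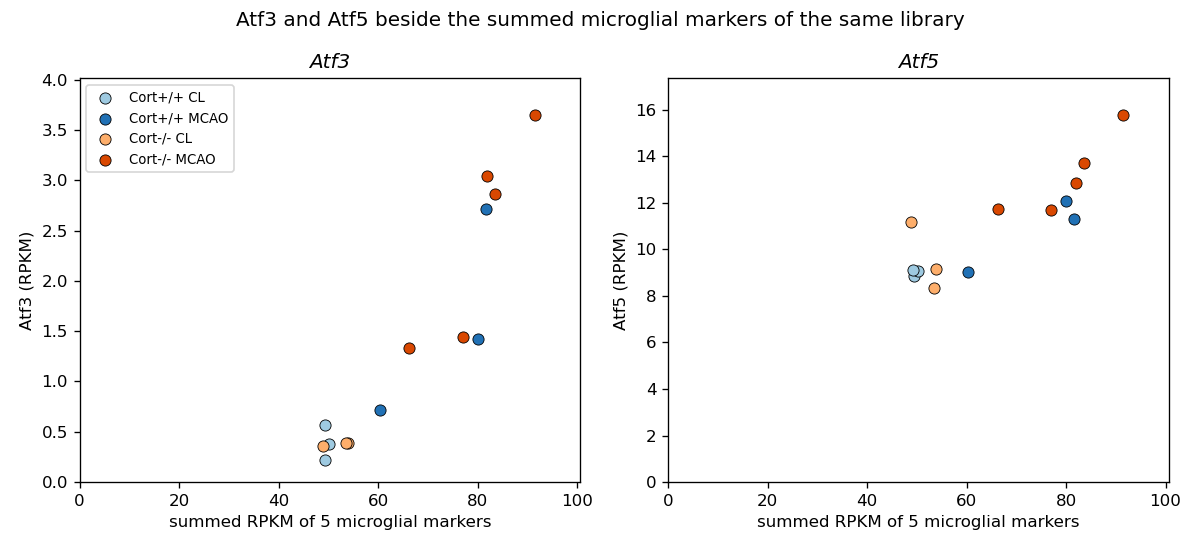
Atf3 (left) and Atf5 (right) as RPKM against the summed RPKM of 5 microglial markers, with 1 point a library and the 4 groups in colour, on linear axes from 0. The MCAO points lie to the right of the CL points, from 60.3 to 91.5 RPKM of marker, and Cort+/+ MCAO replicate 4 lies nearest to the CL points.

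The genes whose pattern was most like that of Atf3, by Pearson's r of log2(RPKM + 0.1) over 14 libraries among 15063 genes, were Plin2, Ifi204 and Apobec1. Plin2 coats lipid droplets, Ifi204 is an interferon-inducible gene of the cytosolic DNA sensor family, and Apobec1 is an mRNA-editing cytidine deaminase. Their r was 0.988, 0.988 and 0.987 (Spearman's rho 0.969, 0.969 and 0.956), and within the 8 MCAO libraries alone it was 0.968, 0.968 and 0.966. For Atf5 they were the calcium channel gene Orai1 (r = 0.955, rho 0.877), the glycosyltransferase gene Galnt2 (r = 0.942, rho 0.873) and the immune kinase gene Syk (r = 0.938, rho 0.890), with r of 0.897, 0.911 and 0.917 within MCAO libraries. Without the 2 libraries farthest from the median, r was 0.983 to 0.985 for Atf3 and 0.909 to 0.987 for Atf5. These values describe libraries that share hemisphere, tissue makeup and depth, and they were picked as the highest of many.

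Beyond the 10 genes, further ATF4 targets were examined as a list of 30 genes of amino acid synthesis and transport, one-carbon metabolism and stress signalling. Averaged over both genotypes 7 of 30 rose in MCAO hemispheres and 0 fell, against 2.52% of all genes called higher, with a median log2FC of 0.13 against 0.00 over all genes tested. In a fit of only the genes that averaged at least 0.5 RPKM, 7 of 26 rose, against 1348 of all 17476. In Cort-/- mice 3 of 30 rose by limma and 5 by voom, against 1.34% of all genes by limma and 938 of 46102 by voom. In Cort+/+ mice 0 of 30 passed by limma, with 7 at an unadjusted p under 0.05, as were 7.87% of all genes, and 0 by voom. Between genotypes 0 of 30 passed in either hemisphere, with 1 in CL and 2 in MCAO at an unadjusted p under 0.05 and 0 by voom. Of all genes, 3.91% in CL and 3.82% in MCAO were at such an unadjusted p. The comparisons of the genotypes and of their mean share libraries, so these counts are not independent. This list and those below were also written with earlier results of these data known. A count above the share of all genes is therefore a description, not independent support.

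The gene that moved most was Gdf15, a secreted stress cytokine. It held 2, 2 and 1 reads in Cort+/+ CL and 26, 54 and 7 reads in Cort+/+ MCAO libraries, and 0, 1 and 2 reads in Cort-/- CL and 94, 49, 21, 51 and 61 reads in Cort-/- MCAO libraries. Every MCAO library lay above every CL library. Per library size its summed reads were 17.5 times higher in MCAO than in CL hemispheres of Cort+/+ mice (95% exact interval 7.21 to 55.2) and 47.6 times higher in Cort-/- mice (16.1 to 232), intervals that cover counting error only. Its adjusted p was 0.00140 for the mean of both genotypes and 0.00751 in Cort-/- mice, while in Cort+/+ mice it was 0.202. The study's own analysis, with edgeR, lists Gdf15 as called in both genotypes and, by the size of the log2FC, as rising more in Cort-/- mice. Here the difference of its response between genotypes did not pass (log2FC 0.97, 95% interval -0.23 to 2.17).

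Nupr1, a small stress-induced chromatin protein, was at 5.0 ± 0.738 RPKM in CL against 9.21 ± 1.13 RPKM in MCAO libraries of Cort+/+ mice (SD, n = 3 for both). Its Cort-/- levels were 5.50 ± 1.13 (SD, n = 3) and 10.7 ± 2.47 RPKM (SD, n = 5), and it rose with a mean log2FC of 0.90 (SE 0.13, adjusted p = 0.00352). Aldh1l2, a mitochondrial enzyme of folate metabolism, had a mean log2FC of 0.83 (SE 0.12, adjusted p = 0.00386), and Eif4ebp1, a repressor of cap-dependent translation, one of 0.75 (SE 0.15, adjusted p = 0.0139). The cystine transporter gene Slc7a11 rose by 0.36 (SE 0.08, adjusted p = 0.0201) and Phgdh, the first enzyme of serine synthesis, by 0.16 (SE 0.04, adjusted p = 0.0288). The remaining gene that passed was Psph, the last enzyme of serine synthesis (0.17, adjusted p = 0.0448), named after its value was seen. With 1 library left out, the calls of Gdf15, Nupr1, Aldh1l2 and Eif4ebp1 in the mean held in 14 of 14 fits, that of Slc7a11 in 11 and that of Phgdh in 8. The count of 7 fell to 4 without Cort+/+ CL replicate 3 or Cort+/+ MCAO replicate 2. The count of 3 in Cort-/- mice fell to 1 without Cort-/- CL replicate 1 or 2 and was 5 without Cort-/- MCAO replicate 3.

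Cytosolic aminoacyl-tRNA synthetases, which charge tRNAs with amino acids and are co-regulated with Asns, gave no calls. Of 13 genes 0 passed by limma in the mean of both genotypes and 0 by voom. An unadjusted p under 0.05 was found for 2 of the 13 genes, as it was for 14.86% of all genes. They are named here after their values were seen, Vars1 (log2FC 0.14, adjusted p = 0.199) and Tars1 (log2FC 0.09, adjusted p = 0.222). The median log2FC of the 13 genes was 0.03.

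Of 22 chaperones and folding or degradation factors of the ER, 5 rose in the mean of both genotypes, against 2.52% of all genes, 0 fell, and the median log2FC was 0.17. In a fit of only the genes that averaged at least 0.5 RPKM, 7 of 22 rose, against 1348 of all 17476. Sec61b, a subunit of the channel that carries proteins into the ER, was at 13.4 ± 0.641 RPKM in CL against 16.2 ± 0.206 RPKM in MCAO libraries of Cort+/+ mice (SD, n = 3 for both), and at 13.4 ± 0.261 (SD, n = 3) against 17.1 ± 0.946 RPKM (SD, n = 5) in Cort-/- mice. Its mean log2FC was 0.31 (SE 0.04, adjusted p = 0.00140), the size of that of Hspa5 (0.31) with a smaller SE (0.04 against 0.11). Sdf2l1, a co-factor of ER chaperones, had a log2FC of 0.70 (SE 0.12, adjusted p = 0.00592), and Edem1, which marks misfolded glycoproteins for degradation, one of 0.48 (SE 0.11, adjusted p = 0.0247). The disulfide isomerases Pdia3 and Pdia4 rose by 0.29 (SE 0.06, adjusted p = 0.0141) and 0.35 (SE 0.08, adjusted p = 0.0265).

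In Cort-/- mice 3 of the 22 rose (Sec61b, Sdf2l1 and Pdia3), against 1.34% of all genes. The count was 0 when only the groups compared were fitted, 5 by voom and 6 with a filter on a mean of at least 0.5 RPKM. Over all genes, 61 of 46102, 938 of 46102 and 898 of 17476 were higher in these fits. Pdia3 lay at the threshold in the main limma fit of Cort-/- mice (adjusted p = 0.0482). Its call was lost in 10 of 14 fits with 1 library left out. The exceptions were the fits without Cort+/+ CL replicate 1 or 2 or Cort+/+ MCAO replicate 2 or 3. In Cort+/+ mice 0 of 22 passed by limma, with 6 at an unadjusted p under 0.05, against 7.87% of all genes, and 0 by voom. Between genotypes 0 of 22 passed, with 0 in CL and 1 in MCAO at an unadjusted p under 0.05 and 0 by voom. Of all genes, 3.91% in CL and 3.82% in MCAO were at such an unadjusted p. The mean count fell to 3 without Cort+/+ CL replicate 3, Cort+/+ MCAO replicate 2 or Cort-/- CL replicate 1. The Cort-/- count fell to 1 without any 1 of the 3 Cort-/- CL libraries, Cort-/- MCAO replicate 1 or replicate 5, and Sec61b was the one whose call held in 14 of 14 fits. In the mean, Edem1 and Pdia4 each kept their call in 9 of 14 fits.

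Upstream, 18 genes of the eIF2 kinases, eIF2 and eIF2B subunits and ER stress sensors were examined. Of these 1 rose, Eif2ak2, against 2.52% of all genes in the mean and 1.34% in Cort-/- mice. It passed both in the mean (log2FC 1.21, SE 0.25, adjusted p = 0.0170) and in Cort-/- mice (1.46, SE 0.33, adjusted p = 0.0441). It encodes PKR, the eIF2 kinase that senses double-stranded RNA and that interferon also induces. It stood at 1.74 ± 0.371 and 3.71 ± 1.93 RPKM (SD, n = 3 for both) in CL and MCAO hemispheres of Cort+/+ mice, and at 1.64 ± 0.287 (SD, n = 3) and 4.90 ± 1.61 RPKM (SD, n = 5) in Cort-/- mice. The Cort-/- call was lost in 11 of 14 fits with 1 library left out (adjusted p = 0.0526 to 0.169) and held only without Cort+/+ MCAO replicate 3 or 4 or Cort-/- MCAO replicate 3, while that of the mean held in 14 of 14. Of the 18 genes 0 fell, and the median log2FC of the list was 0.07. Without Cort+/+ MCAO replicate 4 the mean count was 2. With a filter on a mean of at least 0.5 RPKM it was 3 of 18, against 1348 of all 17476 genes.

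**Figure D4:**
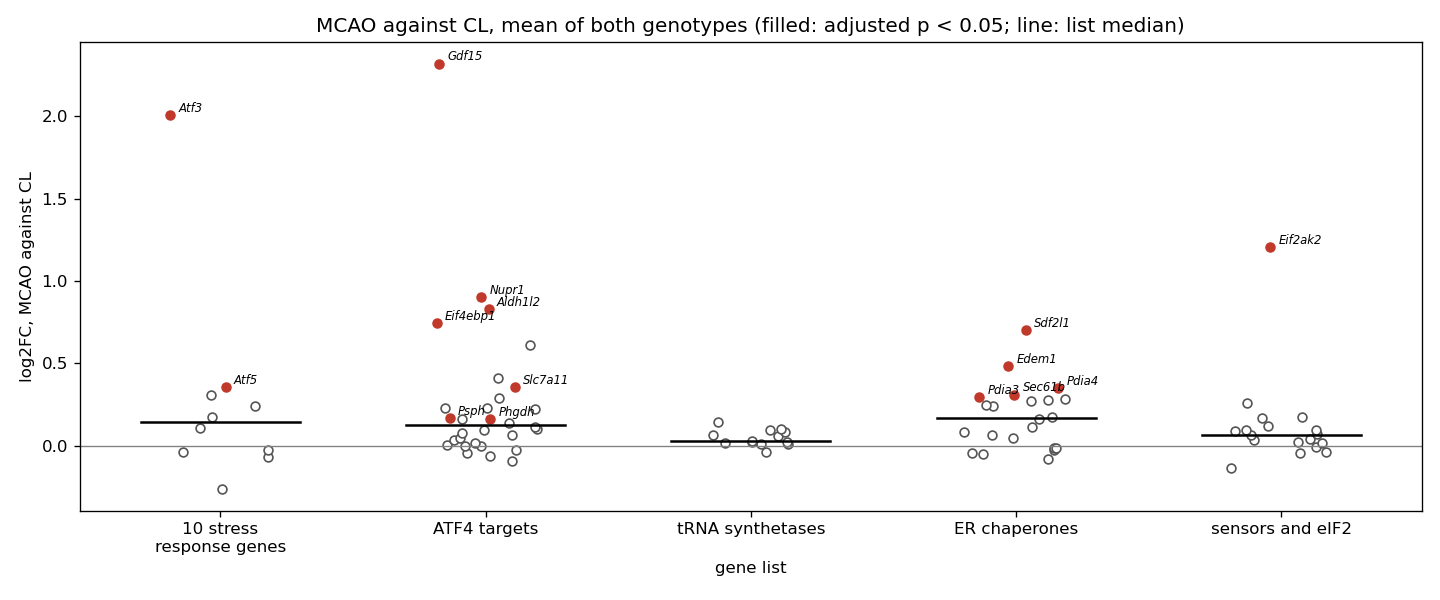
Mean log2FC of MCAO against CL over both genotypes for each gene of the 10 genes and of 4 further lists (30 ATF4 targets, 13 tRNA synthetases, 22 ER chaperones, 18 sensors and eIF2 genes), with the list median as a line and genes at an adjusted p below 0.05 filled and named. All filled points lie above 0, and Atf3 (2.01), Gdf15 (2.32) and Eif2ak2 (1.21) lie farthest up.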

How the data were processed

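The authors aligned the reads to GRCm39 (GENCODE M28) with reanalyzerGSE 3.0.0 and deposited RPKM for each library. Gene lengths, library scaling and the aligner are not given in the sources used here. All 495656 RPKM values above 0 came back as whole reads (tolerance 0.001 reads).

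Genes above 0 in at least 2 libraries were fitted as log2(RPKM + 0.1) with limma 3.58.1 in R 4.3.3 (1 model of the 4 groups, moderated variances with trend), and a gene passed at an adjusted p (Benjamini-Hochberg, all genes) under 0.05. A pseudocount understates changes of low genes. The fit and the recovery were tested on simulated data. Named from the further lists are at most 6 genes each, with an adjusted p under 0.05 in any comparison and the smallest p, and for members that passed the 3 genes of highest r with a mean of at least 1 RPKM. Promoters are the 250 bases before the Ensembl canonical start in GENCODE M39. The 10 genes and the lists were chosen with earlier results of these data known. Other pseudocounts, filters, scalings, weights, blocks and left-out libraries were run as alternatives. Python 3.11.15 with pandas 2.3.3 was used. One gene of the microglial marker list is not reported here, and its values are in no sum.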

Additional observations from a re-analysis of the deposited data

How the results depend on the processing

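Groups of 3 to 5 libraries, and 15 to 44 reads for Trib3 and for Atf3 in CL libraries, limit what could be seen, and a whole hemisphere dilutes the infarct. The count of members that passed in Cort-/- mice (1) was 2 with a filter on a mean of at least 0.5 RPKM, which drops Trib3, and 2 with limma voom on recovered reads, where Atf5 was added. Over all genes, 898 of 17476 and 938 of 46102 were higher in these fits. The count of members was 0 when only the groups compared were fitted, where 61 of 46102 genes were higher. With 1 library left out it was 0 to 2. The count in the mean of both genotypes (2) was 1 with a pseudocount of 1 and 1 to 2 with 1 library left out, as Atf5 was lost. The counts in Cort+/+ mice and between genotypes were 0 in all alternatives run. Atf3 kept its direction between hemispheres in every alternative, and its call in the mean of both genotypes held in 24 of 25. The cause of the changed calls was not tested.

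The deviations of CL and MCAO libraries of the same replicate number correlated at r from -0.24 to 0.32. So few pairs cannot decide whether a number marks 1 mouse, and blocks were run only as alternatives. With genotype and number as a replicate block, 0 members passed in Cort-/- mice and 0 in the mean, and with number alone 0 and 1. Of all 46102 genes tested, 0 passed in either comparison with the first block. With number alone 0 of all genes passed in Cort-/- mice and 238 in the mean. With the first block the log2FC between hemispheres was 0.37 for Ddit4 and -0.096 for Trib3 in Cort+/+ mice, and 0.038 for Chac1 and 0.0042 for Asns in Cort-/- mice, while the difference of the response between genotypes was -0.32 for Atf3, 0.0403 for Atf4 and -0.037 for Sesn2. With the second it was 0.00195 for Atf4 and -0.011 for Trib3 between hemispheres of Cort+/+ mice and -0.20 for Ddit4 between genotypes in MCAO. All of these changed sign without passing the test.

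With other scalings, a pseudocount of 1 or library weights, more values changed sign, also without passing. Rescaled to TPM, Asns was at 0.026 between hemispheres of Cort-/- mice and 0.0037 in the mean, and between genotypes in CL Asns was at 0.054, Sesn2 at 0.049 and Hspa5 at 0.055. With quantile normalization Asns was at 0.0296 and 0.0031 in the same hemisphere comparisons, Ddit3 at -0.0025 between genotypes in CL and Atf4 at 0.015 in the difference of responses. With median-ratio scaling Asns was at 0.0078 in Cort-/- mice and Atf4 at 0.0084 in the difference of responses. With a pseudocount of 1 Atf3 was at -0.00088 between genotypes in CL. With library weights Ddit3 was at -0.018 and Sesn2 at 0.038 between genotypes in CL, and Trib3 at -0.0011 in MCAO.

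With 1 library left out, the log2FC between hemispheres of Cort+/+ mice ran from -0.11 to 0.029 for Atf4, -0.54 to 0.18 for Ddit4, -0.019 to 0.26 for Trib3 and -0.092 to 0.11 for Sesn2. In Cort-/- mice it ran from -0.13 to 0.069 for Atf4, -0.13 to 0.061 for Chac1 and -0.015 to 0.022 for Asns, and in the mean from -0.085 to 0.017 for Atf4. Between genotypes in CL it ran from -0.23 to 0.29 for Atf3, -0.058 to 0.14 for Atf4, -0.044 to 0.16 for Atf5, -0.035 to 0.084 for Ddit3, -0.15 to 0.57 for Ddit4, -0.015 to 0.18 for Chac1, -0.029 to 0.0094 for Asns, -0.13 to 0.075 for Sesn2 and -0.15 to 0.12 for Hspa5. In MCAO it ran from -0.11 to 0.30 for Ddit4, -0.13 to 0.15 for Trib3 and -0.076 to 0.16 for Hspa5. The difference of responses ran from -0.098 to 0.10 for Atf4, -0.49 to 0.23 for Ddit4, -0.039 to 0.15 for Chac1 and -0.071 to 0.20 for Hspa5.

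Over all alternatives the ATF4 targets that rose in the mean numbered 0 to 8 of 30, the ER chaperones 0 to 7 of 22, and the sensors and eIF2 genes 0 to 3 of 18, with 0 lower in each. In Cort-/- mice the ranges were 0 to 5, 0 to 6 and 0 to 2. Over the same alternatives, the share of all genes called higher in the mean ran from 0 of 46102 to 1348 of 17476. In Cort-/- mice that share ran from 0 of 46102 to 898 of 17476. The low end was a replicate block and the high end the filter on a mean of at least 0.5 RPKM.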
